A study of Mus musculus with 41 samples.

Results

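The 150 transcripts described here are those whose share of the RNA was most enriched late in a course of α-amanitin in wild-type (WT) mouse embryonic stem cells (ESCs). Counts were divided by the library total to give CPM (counts per mega-count of the library). Rows with a mean of at least 5 CPM in the 4 WT libraries at 8 h were kept, and genes named Hox, Zfp, Gm with a number, Rpl, Rps, mt- or Hist were left out. The remaining rows were ranked by the log2 ratio of mean WT CPM at 8 h to mean WT CPM at 2 h, with 0.5 CPM added to each, and the 150 highest are the members. They come from 10377 genes that passed both filters, of 51410 genes in all. The members were chosen by the WT 2 h and WT 8 h values, so the difference between them is given as a description with no test. At the edge of the list, Naif1, Mfsd4b4 and Rad1 had log2 ratios of 0.897, 0.893 and 0.893, and the next 3 genes, Sall2, Aacs and Thtpa, had 0.892, 0.889 and 0.886.

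The WT cells are ESCs of the R1 line, and the Caprin1 knockout (KO) cells are 2 lines, clone 2 and clone 4, each of which is 1 clone. CAPRIN1 is a cytoplasmic RNA-binding protein, and the study's design asks how RNA changes without it while transcription is blocked. All groups, controls included, had been taken out of LIF and kept in 1 µM retinoic acid (RA) for 4 days. α-Amanitin was then added at 2 µg/ml, and cells were collected after 0, 2, 4 or 8 h. The groups were 4 WT libraries at each time, 2 of clone 2 at each time, and 2 of clone 4 at 2, 4 and 8 h with 1 at 0 h. Each test, SE and FDR that uses clone 4 at 0 h takes the spread of that lone library from the other groups, which it is assumed to vary like. Nothing in the labels says that replicates were separate cultures, so p-values measure the spread between these libraries, which may be technical.

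α-Amanitin binds RNA polymerase II and halts its movement along the gene, so cells under the drug lose RNA that they would otherwise replace. A poly(A) library taken at such times shows what share each transcript holds of the RNA that is left. If no new RNA is made, a short-lived transcript loses share, and a long-lived transcript gains share even when its own amount is constant. No external RNA standard is named in the labels, so amounts per cell were not measured, and all values here are shares. In bulk RNA, a change in the number of cells of a type and a change in RNA per cell cannot be told apart.

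The library total, in mega-counts (M), was on average 18.7 ± 8.74 M in the 0 h table (SD, n = 7). It was lower in the later tables, with an average of 7.16 ± 0.657 M after 2 h of the toxin, of 7.85 ± 2.04 M after 4 h, and of 8.62 ± 1.09 M after 8 h (n = 8 libraries each). The times were deposited as separate tables, so time and anything else that differs between the tables cannot be told apart. A member's count in a WT 2 h library was at least 4, with a median of 43. Caprin1 stood at 1028 ± 107 CPM in WT (SD, n = 16), at 130 ± 27.0 CPM in clone 2 (n = 8) and at 1061 ± 78.9 CPM in clone 4 (n = 7). The clone 4 libraries lay within the WT range, so the transcript level does not check that label, and clone 4 is called a knockout here as labelled. All 10 ESC markers reached 1 CPM in every group. The summed level of 12 fibroblast feeder markers was 2686 to 3302 CPM in clone 4, 924 to 1624 CPM in WT and 640 to 966 CPM in clone 2. The summed level of 10 primitive and parietal endoderm markers was 28979 to 34975 CPM in clone 2, 13245 to 16866 CPM in clone 4 and 8708 to 11038 CPM in WT.

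The members held a small part of each library. Together they made 0.174 to 0.187% of WT counts at 2 h and 0.388 to 0.393% at 8 h, against 0.235 to 0.267% at 0 h. In each of the 150 genes the 4 WT libraries at 8 h lay above the 4 at 2 h, which the rule favours; 24.5% of all 15850 genes tested did so. All 150 members passed the filter on low counts that precedes the tests. The median log2 change of the members from 2 h to 8 h in WT was 1.06, and from 0 h to 8 h it was 0.62. From 0 h to 2 h it was -0.50, a value that the rule favours too, since it ranks by a low WT level at 2 h.

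The WT 4 h and WT 0 h libraries took no part in the choice, and they split the members into different courses. A gene was called at a false discovery rate (FDR) under 0.05 in edgeR's quasi-likelihood test, adjusted over all 15850 genes tested. At 4 h against 0 h in WT, 33 members were higher, 88 were lower and 29 were not called. Among all genes tested, 24.8% were higher and 27.4% lower in that comparison. The 33 that were already higher at 4 h are called early risers below, and the 88 that were lower at 4 h are called dippers. The other 29 had log2 values from -0.41 to 0.32 at 4 h. The missing call does not show that they were unchanged, since the values of the dippers ran from -2.09 to -0.16. With scaling by library totals alone, which moves the median of all genes by -0.14, the WT split was 32 higher and 92 lower. The 0 h and 4 h libraries come from separate tables, and some genes outside the members differed widely between them. In WT, Gapdh had a log2 value of -5.92 at 4 h against 0 h, and -0.36 at 8 h against 2 h. Fau had -5.87 and -0.34, and Tpt1 -4.14 and -0.19. The median of all genes at 4 h against 0 h was -0.04. These genes were picked for their size, and the reason was not tested. Early risers and dippers were named by this same comparison.

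**Figure D1:**
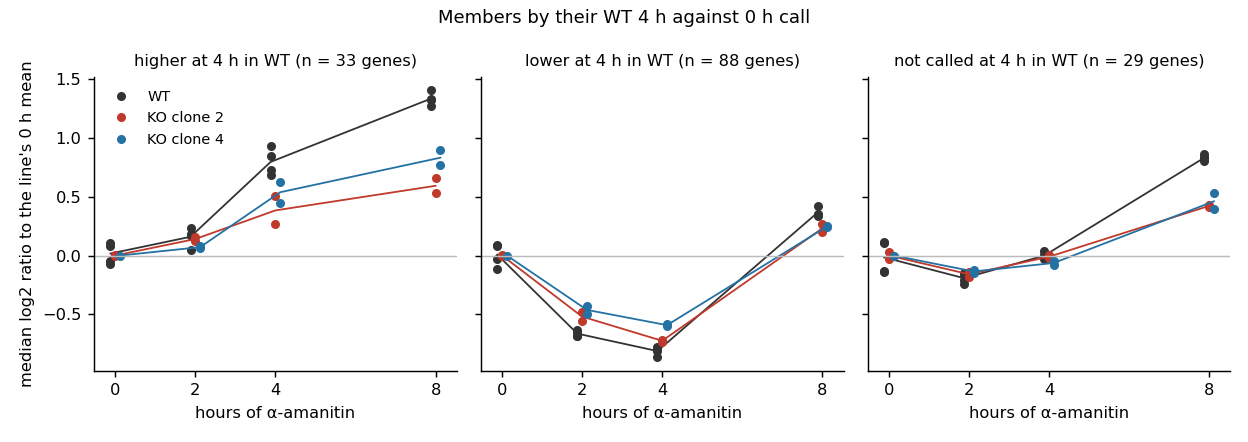
Median over the members of the log2 ratio of each library's CPM to the 0 h mean of its own line (vertical axis), against hours of α-amanitin (horizontal axis), for members higher, lower or not called at 4 h against 0 h in WT. Each point is 1 library and lines join the means; in the middle panel every library at 2 h and 4 h lies below 0 and every library at 8 h above it.

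Both courses appeared in the clone libraries, which neither the rule nor the split used. In clone 2 at 4 h against 0 h, 61 of the 88 dippers were lower and 0 were higher; in clone 4, 48 were lower and 0 higher. Of the 33 early risers, 17 were higher in clone 2 and 19 in clone 4, and 0 were lower in either. Over all members the counts were 19 higher and 64 lower in clone 2, where 20.3% and 21.8% of all genes were called, and 19 higher and 49 lower in clone 4, where 12% and 11.2% were. In clone 4, 68 members were called in either direction, as were 23.1% of all genes in the same fit. Fewer members were called without clone 4 replicate 1 at 4 h, which leaves 1 library there. The share of all genes in that reduced fit is not given. With scaling by library totals, which moves the median of all genes by -0.20 in clone 2 and -0.10 in clone 4, the counts became 18 higher and 78 lower, and 18 higher and 58 lower. The return followed between 4 h and 8 h: 77 of the 88 dippers were higher at 8 h than at 4 h in clone 2 and 76 in clone 4. Over all members these counts were 100 and 105, with 0 lower in either clone, beside 17.9% and 14% of all genes higher and 20.2% and 17.2% lower. The clone comparisons at 4 h were added after the WT split had been seen.

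In the interval that chose the members, 2 h to 8 h, the clones gave the same direction. In clone 2, 93 members were higher at 8 h and 0 were lower, against 12.6% of all genes higher and 13.2% lower. In clone 4, 106 were higher and 0 lower, against 9.1% and 11.3%. The median log2 change of the members was 0.69 in clone 2 and 0.73 in clone 4, smaller than the 1.06 of WT by which they were picked, and that of all genes was -0.01 and -0.02. In 76 members both clones were called higher, as in 4.36% of all genes; 17 were called in clone 2 alone, 30 in clone 4 alone and 27 in neither. Early risers were called in 13 of 33 cases in clone 2 and 28 in clone 4, and dippers in 67 of 88 and 63. The clone 2 value was below 0 in 10 members (Plcl1, Slc5a7, Lonrf2, Tril, Lpar4, Ikzf2, Bves, Calcr, Jade2 and Pax3) and the clone 4 value in Aqp8 and AI987944, none of them called lower.

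**Figure D2:**
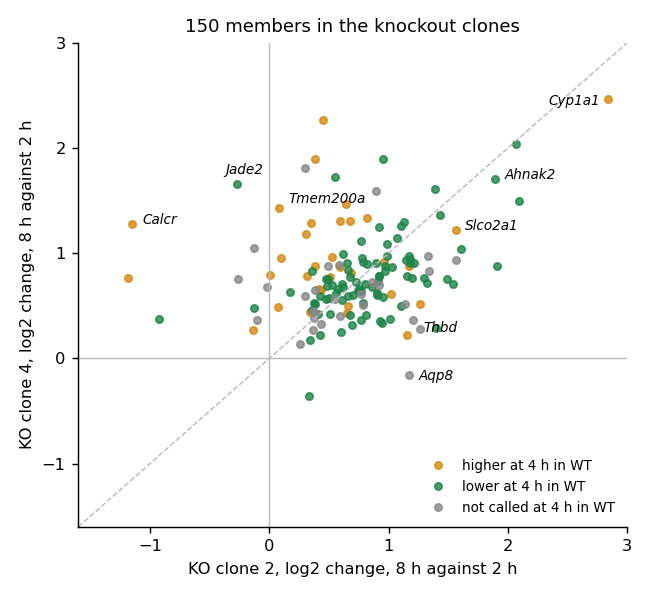
Log2 change from 2 h to 8 h of α-amanitin of each of the 150 members in KO clone 2 (horizontal axis) and KO clone 4 (vertical axis), 1 point per gene, coloured by the WT call at 4 h; the dashed line marks equal change. Points lie below 0 for 10 members in clone 2 and 2 in clone 4, and Cyp1a1 is highest in both.

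Among enzymes, Cyp1a1 rose most of the members called in both clones. It encodes a cytochrome P450 that oxidises aromatic compounds and is a known target of the aryl hydrocarbon receptor. Slco2a1, which encodes a prostaglandin transporter, is a early riser on the same chromosome. The 150 bases before each RefSeq start site (GRCm38.p6, plus strand, chr9:57697463-57697612 for Cyp1a1 and chr9:103008337-103008486 for Slco2a1) are shown because both hold the motif TATAAA, in capitals, close to the start. The Slco2a1 window lies inside the RefSeq span of the gene given below. The start site used for it is therefore downstream of the first base of that span. The GGGCGG in capitals in the second is a GC box motif.
Cyp1a1: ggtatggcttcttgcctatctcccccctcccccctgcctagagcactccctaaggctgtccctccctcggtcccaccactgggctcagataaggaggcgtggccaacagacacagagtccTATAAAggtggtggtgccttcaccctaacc
Slco2a1: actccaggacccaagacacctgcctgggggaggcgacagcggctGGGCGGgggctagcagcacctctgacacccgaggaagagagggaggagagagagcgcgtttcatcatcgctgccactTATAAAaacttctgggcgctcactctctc
TATAAA on either strand of the 300 bases from 250 before to 50 after the start was found in 6 of the 28 early risers with a RefSeq promoter (21.4%), in 7 of 69 dippers (10.1%), in 3 of 18 of the other members (16.7%), in 6.25% of the genes that passed the filters and in 14.2% of 27025 RefSeq promoters. For the dippers, the other members and the members as a whole (13.9%) this check is void, since only 69 of 88, 18 of 29 and 115 of 150 matched a promoter. Nothing is read from it as particular to the early risers. A match of letters is a description of the window and not a known site.

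In WT, Cyp1a1 was at 0.253, 0.947, 0.926 and 0.5899 CPM at 0 h, 1.19, 1.71, 0.943 and 2.796 at 2 h, 2.07, 2.31, 2.899 and 2.66 at 4 h and 6.63, 4.42, 6.04 and 3.75 at 8 h. Clone 2 Cyp1a1 was at 0.9504 and 0.902 CPM at 0 h, 1.19 and 1.399 at 2 h, 2.95 and 3.07 at 4 h and 10.01 and 8.801 at 8 h. Clone 4 Cyp1a1 was at 0.4105 CPM at 0 h, 0.712 and 0.593 at 2 h, 1.95 and 1.56 at 4 h and 3.84 and 3.705 at 8 h. In each line the 8 h libraries lay above every earlier one, and in WT the 0 h and 2 h libraries overlapped. The log2 change from 2 h to 8 h was 2.84 ± 0.31 (SE, FDR = 8.1e-09) in clone 2 and 2.46 ± 0.44 (SE, FDR = 8.9e-05) in clone 4. At 4 h against 0 h in WT the change was 1.71 ± 0.28 (SE, FDR = 3.3e-06). These are low counts, and the share at 0 h was under 1 CPM in all 7 libraries.

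Slco2a1 (chromosome 9, 103007061 to 103096002, GRCm38.p6) stood in WT at 35.2, 33.1, 31.4 and 31.6 CPM at 0 h, 40.3, 29.6, 38.2 and 35.9 at 2 h, 52.6, 61.3, 60.6 and 58.01 at 4 h and 81.9, 94.6, 77.8 and 104 at 8 h. Clone 2 Slco2a1 was at 189.6 and 176 CPM at 0 h, 191 and 159 at 2 h, 236 and 249 at 4 h and 539 and 498 at 8 h. Clone 4 Slco2a1 was at 91.4 CPM at 0 h, 84.9 and 90.6 at 2 h, 153.2 and 148.3 at 4 h and 209 and 211 at 8 h. The 0 h and 2 h libraries lay close together in each line, and at each time clone 2 lay highest and WT lowest with no overlap. Slco2a1 rose from 2 h to 8 h by 1.56 ± 0.10 (SE, FDR = 1.6e-13) in clone 2 and 1.22 ± 0.11 (SE, FDR = 3.6e-10) in clone 4. Before the drug, Slco2a1 was higher than in WT by 2.65 ± 0.09 (SE, FDR = 4.3e-23) in clone 2 and by 1.60 ± 0.11 (SE, FDR = 1.5e-13) in clone 4, the latter from 1 library with the spread of the other groups.

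Channels and transporters numbered 10 among the members, of which 6 were early risers and 1 a dipper. Of all 150 members, 22% were early risers and 58.7% dippers. Slco3a1, an organic anion transporter, and Slc17a5, the lysosomal sialic acid exporter, were called higher from 2 h to 8 h in both clones, by 1.26 and 1.02 in clone 2 and by 0.52 and 0.61 in clone 4. Cacna2d1, a calcium channel subunit, had 0.44 in clone 2, not called, and 0.65 in clone 4, a call lost without replicate 1 of clone 4 at 2 h (0.62) or at 8 h (0.63). The water channel Aqp8 was called higher in clone 2 by 1.17 and had -0.16 in clone 4.

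Adhesion, guidance and matrix genes made up 14 members, 10 of them early risers and 1 a dipper, beside 22% and 58.7% of all members. From 2 h to 8 h, 4 of the 14 were called higher in clone 2, beside 12.6% of all genes and 62% of the members, with a median of 0.48. In clone 4 12 were, beside 9.1% and 70.7%, with a median of 0.84. The difference between these counts was not tested. Igsf11, an immunoglobulin-family adhesion protein (chromosome 16, 38892476 to 39027159), was in WT at 10.9, 11.5, 12.6 and 12.98 CPM at 0 h, 12.99, 10.95, 13.1 and 12.6 at 2 h, 26.8, 22.5, 24.1 and 28.7 at 4 h and 30.5, 35.2, 33.9 and 32.5 at 8 h. Clone 2 Igsf11 was at 18.3 and 18.1 CPM at 0 h, 22.5 and 19.3 at 2 h, 29.98 and 31.9 at 4 h and 35.04 and 32.3 at 8 h. Clone 4 Igsf11 was at 15.4 CPM at 0 h, 13.1 and 15.7 at 2 h, 31.2 and 23.3 at 4 h and 36.02 and 37.6 at 8 h. In all 3 lines the 4 h libraries lay above those of 0 h and 2 h, and at 8 h WT and clone 2 overlapped with clone 4 just above. Igsf11 rose from 2 h to 8 h by 0.68 ± 0.13 (SE, FDR = 1.2e-04) in clone 2 and 1.31 ± 0.14 (SE, FDR = 8.8e-09) in clone 4.

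Emp1, a membrane protein of epithelia, was a member not called in clone 2. WT Emp1 was at 29.8, 27.7, 42.8 and 41.5 CPM at 0 h, 33.00, 40.5, 37.3 and 37.5 at 2 h, 66.2, 56.4, 65.2 and 78.8 at 4 h and 111, 118, 101 and 113 at 8 h. Clone 2 Emp1 was at 44.8 and 45.5 CPM at 0 h, 43.1 and 46.5 at 2 h, 46.2 and 43.7 at 4 h and 44.9 and 49.6 at 8 h. Clone 4 Emp1 was at 203 CPM at 0 h, 207 and 207 at 2 h, 264 and 241 at 4 h and 294 and 308 at 8 h. The 8 clone 2 libraries lay within 43.1 and 49.6 CPM, while WT at 8 h was above every WT library at 0 h and clone 4 was above WT throughout. The change from 2 h to 8 h was 0.07 ± 0.15 (SE, FDR = 0.788) in clone 2 and 0.49 ± 0.13 (SE, FDR = 0.00776) in clone 4. The clone 4 call was lost, with a value of 0.46 to 0.49, without either 2 h replicate or without 8 h replicate 2. Alcam, Itga7 and Cdh10, also adhesion proteins, had 0.32, 0.35 and 0.31 in clone 2, not called, and were called in clone 4 at 0.79, 1.29 and 1.18. Lgals3, the lectin galectin-3, and Srgap1, a Slit-Robo signalling GTPase activator, were called higher in both clones.

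Plxna4, a receptor for semaphorins that guides axons (chromosome 6, 32144543 to 32588192), ranked highest by the rule, whose ratio has 0.5 CPM added; in the fit, which does without that term, Aldh1a3 had the larger WT change, 2.65 against 2.49. WT Plxna4 was at 3.54, 3.25, 3.53 and 3.03 CPM at 0 h, 2.69, 2.56, 2.04 and 3.21 at 2 h, 2.46, 3.47, 3.78 and 3.29 at 4 h and 14.9, 17.9, 14.8 and 13.6 at 8 h. Clone 2 Plxna4 was at 1.01 and 0.955 CPM at 0 h, 1.31 and 1.02 at 2 h, 1.59 and 1.23 at 4 h and 2.45 and 1.99 at 8 h. Clone 4 Plxna4 was at 5.54 CPM at 0 h, 3.85 and 4.004 at 2 h, 6.54 and 4.11 at 4 h and 13.7 and 10.7 at 8 h. Its WT level hardly moved to 4 h, and the 4 libraries at 8 h then lay far above the rest. Clone 2 held less Plxna4 than WT at every time, with no overlap. From 2 h to 8 h the change was 0.90 ± 0.36 (SE, FDR = 0.0671) in clone 2, not called, and 1.59 ± 0.22 (SE, FDR = 1.5e-06) in clone 4.

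Secreted signals and their antagonists numbered 6, with 4 early risers and 1 dipper, beside 22% and 58.7% of all members. Wnt7a, a Wnt ligand (chromosome 6, 91363981 to 91411353), reached its WT level of 8 h already at 4 h. WT Wnt7a was at 1.26, 1.58, 2.16 and 1.94 CPM at 0 h, 1.05, 4.12, 2.36 and 2.097 at 2 h, 7.11, 6.07, 7.82 and 5.42 at 4 h and 5.94, 5.85, 6.17 and 5.91 at 8 h. Clone 2 Wnt7a was at 0.444 and 0.424 CPM at 0 h, 0.358 and 0.382 at 2 h, 0.227 and 0.981 at 4 h and 0.556 and 0.473 at 8 h. Clone 4 Wnt7a was at 1.33 CPM at 0 h, 0.285 and 1.93 at 2 h, 2.83 and 2.69 at 4 h and 5.12 and 5.79 at 8 h. Clone 2 stayed under 1 CPM, and in clone 4 both 8 h libraries lay above all earlier ones. The WT change at 4 h against 0 h was 1.94 ± 0.23 (SE, FDR = 7.4e-09), and the change from 2 h to 8 h was 0.45 ± 0.83 (SE, FDR = 0.743) in clone 2 and 2.26 ± 0.42 (SE, FDR = 1.7e-04) in clone 4.

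Aldh1a3, an enzyme that makes RA from retinaldehyde, followed a similar order. WT Aldh1a3 was at 0.253, 0.902, 0.529 and 1.35 CPM at 0 h, 0.747, 1.14, 0.629 and 1.26 at 2 h, 2.07, 4.62, 3.15 and 2.76 at 4 h and 6.49, 5.85, 5.64 and 6.93 at 8 h. Clone 2 Aldh1a3 was at 0.444 and 0.477 CPM at 0 h, 0.717 and 0.763 at 2 h, 0.568 and 0.859 at 4 h and 0.8899 and 1.04 at 8 h. Clone 4 Aldh1a3 was at 0.924 CPM at 0 h, 1.57 and 1.33 at 2 h, 4.39 and 2.84 at 4 h and 5.12 and 6.14 at 8 h. WT and clone 4 overlapped at 8 h, and clone 2 stayed near 1 CPM or under it. The change from 2 h to 8 h was 0.38 ± 0.53 (SE, FDR = 0.654) in clone 2 and 1.90 ± 0.34 (SE, FDR = 1.1e-04) in clone 4. The difference between the clones in that change, 1.52 ± 0.67 (SE, FDR = 0.216), was not called.

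Among members not called at 4 h, Fgf3, a fibroblast growth factor (chromosome 7, 144838612 to 144843348), differed widely between lines. WT Fgf3 was at 5.06, 4.24, 4.98 and 4.72 CPM at 0 h, 3.14, 3.27, 4.09 and 4.89 at 2 h, 6.08, 5.49, 3.91 and 3.93 at 4 h and 8.701, 10.3, 9.97 and 10.8 at 8 h. Clone 2 Fgf3 was at 40.6 and 38.1 CPM at 0 h, 30.9 and 27.1 at 2 h, 38.9 and 35.8 at 4 h and 76.2 and 72.02 at 8 h. Clone 4 Fgf3 was at 10.1 CPM at 0 h, 7.98 and 8.75 at 2 h, 7.71 and 6.66 at 4 h and 18.1 and 12.5 at 8 h. In every line the 8 h libraries were the highest, and clone 2 lay above clone 4 and clone 4 above WT at each time. Fgf3 rose from 2 h to 8 h by 1.34 ± 0.13 (SE, FDR = 4.2e-10) in clone 2 and 0.83 ± 0.18 (SE, FDR = 8.6e-04) in clone 4, where it was 0.53 and not called without 8 h replicate 1.

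Tubb3, the neuronal β-tubulin (chromosome 8, 123411553 to 123422015), was likewise not called at 4 h in WT. WT Tubb3 was at 24.3, 23.1, 22.6 and 19.5 CPM at 0 h, 21.8, 19.8, 18.4 and 16.9 at 2 h, 20.4, 20.5, 20.9 and 18.8 at 4 h and 36.05, 36.2, 39.2 and 39.6 at 8 h. Clone 2 Tubb3 was at 5.92 and 6.52 CPM at 0 h, 6.21 and 5.47 at 2 h, 7.38 and 6.01 at 4 h and 15.7 and 14.01 at 8 h. Clone 4 Tubb3 was at 19.5 CPM at 0 h, 18.1 and 16.6 at 2 h, 19.8 and 14.3 at 4 h and 36.7 and 33.7 at 8 h. The 8 h libraries stood above all others of their line, and clone 2 lay lowest of the lines at each time. Tubb3 rose from 2 h to 8 h by 1.33 ± 0.17 (SE, FDR = 2.6e-07) in clone 2 and 0.97 ± 0.13 (SE, FDR = 1.7e-06) in clone 4. Of the 8 neuronal cytoskeleton and vesicle genes, 7 were called higher in clone 2, where 12.6% of all genes and 62% of the members were, and 6 in clone 4, where 9.1% and 70.7% were; they include the microtubule proteins Map1a, Map6 and Map9 and the calcium sensor Ncs1. The 7 neuroectoderm markers, of which Tubb3 is one, summed to 84.8 to 97.3 CPM in clone 2 and 424 to 641 CPM in WT, and their part in the Tubb3 values was not tested.

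**Figure D3:**
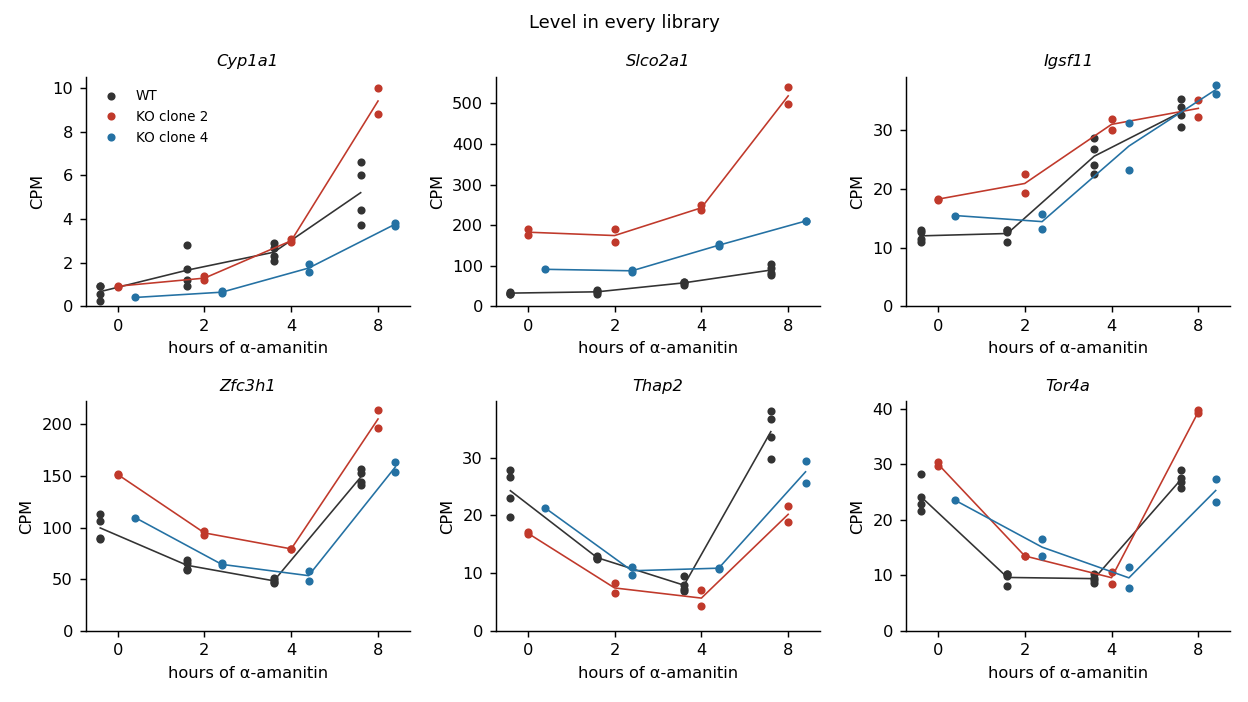
CPM of the library total (vertical axes, each from 0) against hours of α-amanitin for 6 members, with 1 point per library and lines through the means of WT, KO clone 2 and KO clone 4. The upper 3 are early risers and the lower 3 dippers, which are lowest at 2 h or 4 h and back at or above the 0 h level at 8 h.

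The role groups that follow held more dippers than early risers. Of 16 DNA-binding and transcription genes among the members, 14 were dippers and 0 early risers; of 8 BTB, TRIM and other ubiquitin-linked genes, 7 and 0; of 8 RNA processing and DNA repair genes, 7 and 0; and of 6 cilia and centrosome genes, 5 and 0. Of all 150 members, 58.7% were dippers and 22% early risers. These role groups are small, were drawn up after the members were known and carry no test. The rule left out genes named Zfp, so the DNA-binding group is not complete. RNA processing and repair is led by Zfc3h1, which links polyadenylated nuclear RNA to the exosome for decay. Thap2, a zinc finger protein of the THAP family, is its divergent neighbour on chromosome 10, and both are dippers. Their RefSeq start sites, 115384959 on the plus strand for Zfc3h1 and 115384435 on the minus strand for Thap2, lie 524 bases apart. The 150 bases before each start (GRCm38.p6, chr10:115384809-115384958 plus and chr10:115384436-115384585 minus, each 5′ to 3′ on its own strand) are shown because these neighbours share their course. The printed stretches both lie between the start sites and do not overlap. The capitals mark a GGGCGG motif, and neither window holds TATAAA.
Zfc3h1: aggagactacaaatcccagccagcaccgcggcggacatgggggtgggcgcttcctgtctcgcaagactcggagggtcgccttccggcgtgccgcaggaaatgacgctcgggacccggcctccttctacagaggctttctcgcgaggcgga
Thap2: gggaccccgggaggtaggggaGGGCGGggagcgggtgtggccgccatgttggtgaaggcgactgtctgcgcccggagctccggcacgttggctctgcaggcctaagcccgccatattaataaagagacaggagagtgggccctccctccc
WT Zfc3h1 was at 89.5, 89.2, 107 and 113 CPM at 0 h, 59.1, 60.3, 68.7 and 65.6 at 2 h, 45.9, 47.7, 48.9 and 50.99 at 4 h and 156, 142, 152.5 and 145 at 8 h. Clone 2 Zfc3h1 was at 152 and 151 CPM at 0 h, 96.8 and 92.8 at 2 h, 79.3 and 79.4 at 4 h and 197 and 214 at 8 h. Clone 4 Zfc3h1 was at 109.7 CPM at 0 h, 63.2 and 65.4 at 2 h, 48.5 and 58.3 at 4 h and 154 and 163 at 8 h. Every line fell to its lowest level at 4 h, and at 8 h every library was above all earlier ones of its line. At 4 h against 0 h, Zfc3h1 fell by 0.95 ± 0.07 (SE) on the log2 scale in WT, by 0.79 in clone 2 and by 0.96 in clone 4, all called. From 2 h to 8 h it rose by 1.11 ± 0.09 (SE, FDR = 1.8e-11) in clone 2 and 1.26 ± 0.10 (SE, FDR = 5.3e-12) in clone 4. The 8 h level was above the 0 h level by 0.49 ± 0.09 (SE, FDR = 5.2e-05) and 0.53 ± 0.11 (SE, FDR = 6.1e-04).

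WT Thap2 was at 23.02, 19.7, 26.6 and 27.8 CPM at 0 h, 12.5, 12.7, 13.1 and 12.4 at 2 h, 6.98, 7.23, 7.94 and 9.46 at 4 h and 36.7, 33.5, 38.1 and 29.8 at 8 h. Clone 2 Thap2 was at 17.1 and 16.7 CPM at 0 h, 8.24 and 6.61 at 2 h, 7.04 and 4.29 at 4 h and 18.8 and 21.6 at 8 h. Clone 4 Thap2 was at 21.3 CPM at 0 h, 9.69 and 11.1 at 2 h, 10.9 and 10.8 at 4 h and 29.4 and 25.7 at 8 h. WT was lowest at 4 h, and in both clones the 2 h and 4 h libraries overlapped and lay below all those of 0 h and 8 h. Thap2 fell by 1.50, 1.43 and 0.89 on the log2 scale at 4 h against 0 h in WT, clone 2 and clone 4, and rose from 2 h to 8 h by 1.43 ± 0.18 (SE, FDR = 2.5e-07) in clone 2 and 1.36 ± 0.17 (SE, FDR = 4.3e-07) in clone 4. At 8 h against 0 h the clone values were 0.31 ± 0.15 and 0.37 ± 0.17, neither called. Other dippers of these groups called higher from 2 h to 8 h in both clones were Rrm2b, a ribonucleotide reductase subunit induced by p53, Adat1, a tRNA adenosine deaminase, Pif1, a DNA helicase, and Banp and Zkscan8, which bind DNA.

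Dnajc28, a DnaJ-domain protein (chromosome 16, 91614257 to 91618999), had the lowest WT value of the members at 4 h against 0 h. In clone 2 and clone 4 it fell by 1.61 and 1.50 on the log2 scale, and other members had lower values there. WT Dnajc28 was at 6.58, 6.72, 7.54 and 7.75 CPM at 0 h, 1.49, 2.99, 1.89 and 2.52 at 2 h, 1.81, 1.45, 1.26 and 1.700 at 4 h and 7.73, 7.67, 7.35 and 5.45 at 8 h. Clone 2 Dnajc28 was at 4.72 and 5.73 CPM at 0 h, 1.31 and 1.14 at 2 h, 1.703 and 1.35 at 4 h and 5.56 and 5.11 at 8 h. Clone 4 Dnajc28 was at 5.75 CPM at 0 h, 1.99 and 1.93 at 2 h, 1.66 and 2.27 at 4 h and 4.903 and 6.599 at 8 h. The 2 h and 4 h libraries lay below all 0 h and 8 h libraries of their line, while 0 h and 8 h overlapped. It fell by 2.09 ± 0.19 (SE) on the log2 scale at 4 h against 0 h in WT, and rose from 2 h to 8 h by 2.09 ± 0.30 (SE, FDR = 1.4e-06) in clone 2 and 1.50 ± 0.28 (SE, FDR = 1.6e-04) in clone 4. At 8 h it was back near its start, with 0.09 ± 0.19 and -0.01 ± 0.23 against 0 h.

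Ppp1r3b, which targets protein phosphatase 1 to glycogen (chromosome 8, 35375694 to 35388139), had the next lowest WT value at 4 h against 0 h, -1.83, and came back only in part. In the clones its values were -2.02 and -1.57, beside -1.61 and -1.50 for Dnajc28. WT Ppp1r3b was at 20.5, 26.5, 28.7 and 27.1 CPM at 0 h, 7.32, 9.81, 7.39 and 7.55 at 2 h, 7.37, 4.62, 7.44 and 7.22 at 4 h and 20.7, 18.8, 21.4 and 19.4 at 8 h. Clone 2 Ppp1r3b was at 30.03 and 32.5 CPM at 0 h, 10.5 and 10.7 at 2 h, 7.38 and 6.501 at 4 h and 22.2 and 22.5 at 8 h. Clone 4 Ppp1r3b was at 22.6 CPM at 0 h, 7.55 and 6.97 at 2 h, 7.03 and 7.37 at 4 h and 17.6 and 15.5 at 8 h. Both clones were lower at 8 h than at 0 h without overlap, and in WT 1 library at 0 h lay among those of 8 h. Ppp1r3b rose from 2 h to 8 h by 1.07 ± 0.15 (SE, FDR = 7.0e-07) in clone 2 and 1.14 ± 0.17 (SE, FDR = 4.6e-06) in clone 4. At 8 h against 0 h the log2 value was -0.43 ± 0.12 in clone 2 and -0.45 ± 0.15 in clone 4, both called lower. Those calls were lost without 0 h replicate 2 of clone 2 (-0.38) and without 8 h replicate 2 of clone 4 (-0.36).

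Tor4a, an ATPase of the torsin family (chromosome 2, 25192720 to 25196813), returned further in clone 2. WT Tor4a was at 28.3, 24.03, 21.6 and 22.9 CPM at 0 h, 8.06, 10.2, 10.2 and 9.92 at 2 h, 9.57, 8.67, 10.2 and 9.14 at 4 h and 25.7, 26.8, 29.00 and 27.6 at 8 h. Clone 2 Tor4a was at 30.4 and 29.7 CPM at 0 h, 13.5 and 13.5 at 2 h, 10.7 and 8.46 at 4 h and 39.7 and 39.2 at 8 h. Clone 4 Tor4a was at 23.5 CPM at 0 h, 13.5 and 16.6 at 2 h, 11.4 and 7.66 at 4 h and 27.4 and 23.2 at 8 h. The lines lay close together at 4 h, and at 8 h the clone 2 libraries stood above all others. Tor4a rose from 2 h to 8 h by 1.54 ± 0.14 (SE, FDR = 1.3e-10) in clone 2 and 0.70 ± 0.15 (SE, FDR = 5.9e-04) in clone 4. The clone 4 change minus the clone 2 change was -0.83 ± 0.20, a call lost without clone 2 replicate 2 at 2 h (-0.83) or clone 4 replicate 2 at 2 h (-0.68) or 8 h (-0.72).

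Trim65, a ubiquitin ligase (chromosome 11, 116124708 to 116131413), led the ubiquitin-linked genes. WT Trim65 was at 3.79, 3.74, 3.39 and 2.697 CPM at 0 h, 1.19, 1.14, 1.26 and 1.12 at 2 h, 1.68, 2.601, 1.64 and 0.8499 at 4 h and 6.35, 4.29, 5.91 and 4.43 at 8 h. Clone 2 Trim65 was at 5.196 and 4.35 CPM at 0 h, 2.63 and 3.43 at 2 h, 4.66 and 2.82 at 4 h and 7.79 and 8.14 at 8 h. Clone 4 Trim65 was at 3.54 CPM at 0 h, 1.85 and 1.48 at 2 h, 2.05 and 2.41 at 4 h and 5.44 and 5.09 at 8 h. All values are low, and in every line the 8 h libraries lay above the others. Trim65 rose from 2 h to 8 h by 1.39 ± 0.25 (SE, FDR = 5.4e-05) in clone 2 and 1.61 ± 0.31 (SE, FDR = 2.9e-04) in clone 4. Klhl42 and Kctd21, which have the BTB and Kelch or tetramerisation domains of ubiquitin ligase adaptors, were called in both clones, and Kbtbd8 and Rnf135 in clone 2 alone.

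Ahnak2, a large scaffold-like protein (chromosome 12, 112772197 to 112802658), ended higher in the clones than it began. WT Ahnak2 was at 59.7, 66.6, 50.6 and 39.02 CPM at 0 h, 31.2, 31.01, 25.9 and 30.6 at 2 h, 27.03, 30.1, 27.99 and 29.3 at 4 h and 55.5, 55.2, 55.9 and 64.7 at 8 h. Clone 2 Ahnak2 was at 9.06 and 7.48 CPM at 0 h, 6.09 and 4.83 at 2 h, 8.29 and 7.73 at 4 h and 19.7 and 21.2 at 8 h. Clone 4 Ahnak2 was at 31.9 CPM at 0 h, 19.8 and 20.9 at 2 h, 21.1 and 16.3 at 4 h and 64.8 and 72.6 at 8 h. WT at 8 h overlapped WT at 0 h, and each clone at 8 h lay above all its own earlier libraries. From 2 h to 8 h Ahnak2 rose by 1.89 ± 0.23 (SE, FDR = 2.3e-07) in clone 2 and 1.71 ± 0.17 (SE, FDR = 1.2e-08) in clone 4, and at 8 h against 0 h by 1.34 ± 0.18 (SE, FDR = 1.3e-06) and 1.10 ± 0.18 (SE, FDR = 6.9e-05). B130055M24Rik, with no role given here, and Zdhhc24, an enzyme of the palmitoyltransferase family, complete the 10 members that rose most in both clones, with 2.07 and 1.13 in clone 2 and 2.03 and 1.30 in clone 4. The cilia genes Bbs10, Cep97 and Iqcc were dippers called in both clones, though the clone 4 call was lost for Iqcc without 2 h replicate 1 (0.69) and for Bbs10 without 2 h replicate 1 (0.47) or 8 h replicate 1 (0.77) or 2 (0.79).

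Against the level before the drug, the 2 courses ended apart. At 8 h against 0 h, 63 members were higher and 1 lower in clone 2, beside 12.6% and 15.8% of all genes, and 59 were higher and 2 lower in clone 4, beside 8.57% and 10.9%, where the 0 h arm is 1 library. The lower ones were Ppp1r3b in both and Stat2, an interferon signalling factor, in clone 4; Stat2 was picked out after its value was seen. Early risers were higher in 19 of 33 cases in clone 2 and 29 in clone 4. Of the 88 dippers, 31 (35.2%) were higher and 1 lower in clone 2, and 17 (19.3%) were higher and 2 lower in clone 4. The other 56 dippers in clone 2 and 69 in clone 4 were not called, which does not show that their levels were equal. In WT, 8 h libraries chose the members and 0 h libraries took part in the split into courses. There the median log2 value of 8 h against 0 h was 1.40 for early risers and 0.36 for dippers, a gap that the split favours. The clone 2 count of 64 called members, beside 28.4% of all genes called in either direction, was 42 without 0 h replicate 2 and 40 without 8 h replicate 2.

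Before the drug the members differed between lines in both directions. At 0 h, 44 were higher and 56 lower in clone 2 than in WT, beside 30.6% and 29.4% of all genes. In clone 4, 39 were higher and 19 lower, beside 19.7% and 18.4%, from 1 clone 4 library and the spread of the other groups. Scaled by library totals, which moves the median of all genes by -0.15 and -0.12, the counts were 36 and 67 in clone 2 and 30 and 31 in clone 4. A fit of only the WT and clone 4 libraries at 0 h, with 1 library of clone 4, called fewer members in clone 4. The shares of all genes called in that fit and under library totals are not given. The clones share the same WT libraries, and 20 members were higher and 13 lower in both. The joint share over all genes was not computed, so these 2 counts are not read as particular to the members. The early risers and the split by which they were named share WT 0 h libraries with this comparison, so no count by course is read from it. Feeder markers summed to 3302 CPM in the clone 4 library at 0 h and 1076 to 1624 CPM in WT, and endoderm markers to 30043 to 31177 CPM in clone 2 and 9104 to 10046 CPM in WT. Their part in these differences was not tested.

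**Figure D4:**
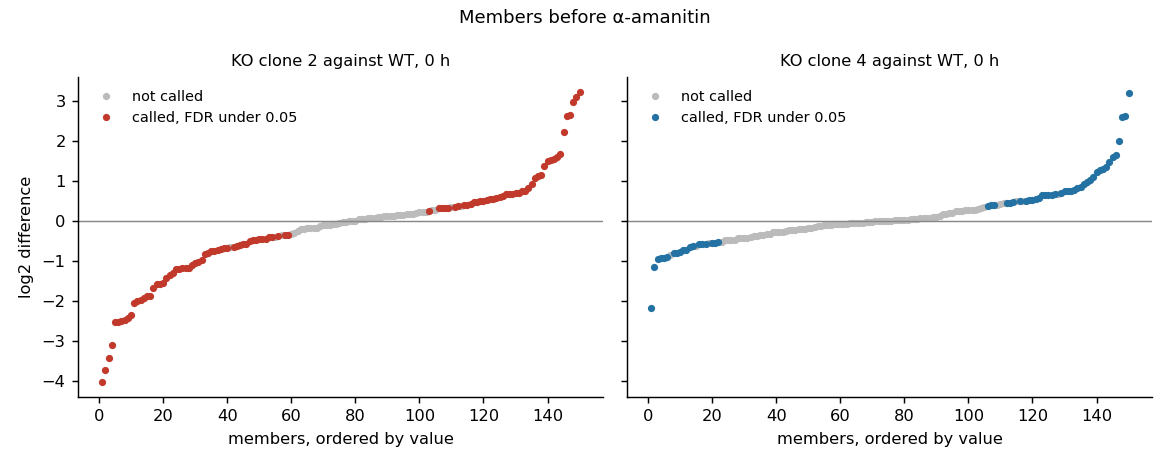
Log2 difference at 0 h between KO clone 2 (left) or KO clone 4 (right) and WT (vertical axis) for the 150 members, ordered by value within each panel (horizontal axis); coloured points were called at an FDR under 0.05. Clone 2 has 44 called above 0 and 56 below, and clone 4 has 39 and 19.

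Fgf3 was higher than in WT by 3.23 ± 0.12 (SE, FDR = 9.2e-23) in clone 2 and 1.21 ± 0.17 (SE, FDR = 7.7e-07) in clone 4. Aqp8 was higher by 3.10 ± 0.16 and 1.48 ± 0.22. Thbd, which encodes thrombomodulin and is itself one of the endoderm markers, was higher by 2.62 ± 0.09 and 2.61 ± 0.11. WT Thbd was at 6.32, 6.45, 7.54 and 8.76 CPM at 0 h, 6.72, 6.54, 6.45 and 7.55 at 2 h, 7.37, 8.96, 8.07 and 7.76 at 4 h and 13.5, 14.3, 13.1 and 14.3 at 8 h. Clone 2 Thbd was at 41.7 and 39.1 CPM at 0 h, 53.5 and 47.9 at 2 h, 49.96 and 49.7 at 4 h and 117 and 118 at 8 h. Clone 4 Thbd was at 41.7 CPM at 0 h, 40.3 and 34.6 at 2 h, 40.4 and 42.3 at 4 h and 53.5 and 46.1 at 8 h. The clones overlapped at 0 h, and the gap between them was widest at 8 h. The change from 2 h to 8 h in clone 4 minus that in clone 2 was -0.84 ± 0.14 (SE, FDR = 2.8e-04).

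Dkk2, a secreted Wnt antagonist, was lower than WT at 0 h, with log2 differences of -4.04 ± 0.21 (SE, FDR = 8.8e-19) in clone 2 and -0.56 ± 0.18 (SE, FDR = 0.0157) in clone 4. WT Dkk2 was at 23.02, 15.9, 20.9 and 16.7 CPM at 0 h, 13.6, 17.2, 14.6 and 15.2 at 2 h, 24.1, 25.1, 24.5 and 31.3 at 4 h and 39.8, 31.6, 31.5 and 31.2 at 8 h. Clone 2 Dkk2 was at 0.792 and 1.33 CPM at 0 h, 0.597 and 0.636 at 2 h, 0.908 and 0.613 at 4 h and 0.667 and 0.662 at 8 h. Clone 4 Dkk2 was at 11.8 CPM at 0 h, 8.26 and 9.34 at 2 h, 10.8 and 7.799 at 4 h and 18.97 and 16.2 at 8 h. Clone 2 was close to 1 CPM or below it throughout, and clone 4 lay between it and WT. Pax3, a transcription factor of neural crest and muscle, was lower, with -3.10 ± 0.23 in clone 2 and -0.58 ± 0.22 in clone 4, and the clone 4 call was lost without WT replicate 2 (-0.49) or 4 (-0.52). Ccdc8, a protein of the CUL7 growth complex, was lower, with -2.36 ± 0.12 and -0.94 ± 0.14.

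The change from 2 h to 8 h differed between the clones in 14 members, 7 larger in clone 4 and 7 larger in clone 2, against 2.12% and 2.18% of all genes and 4.3% in either direction. The count was 8 and 6 without replicates 1 and 2 of clone 2 at 2 h, 7 without either replicate of clone 4 at 2 h, 8 and 7 without replicates 1 and 2 of clone 2 at 8 h, and 6 without replicate 2 of clone 4 at 8 h. The largest was in Calcr, the calcitonin receptor. WT Calcr was at 11.1, 8.07, 11.9 and 10.9 CPM at 0 h, 7.91, 10.2, 11.8 and 8.67 at 2 h, 13.7, 14.2, 12.9 and 19.4 at 4 h and 23.8, 17.02, 23.1 and 15.8 at 8 h. Clone 2 Calcr was at 1.01 and 0.583 CPM at 0 h, 1.91 and 1.02 at 2 h, 0.454 and 1.104 at 4 h and 0.667 and 0.662 at 8 h. Clone 4 Calcr was at 2.104 CPM at 0 h, 1.57 and 1.48 at 2 h, 2.54 and 2.27 at 4 h and 3.94 and 3.705 at 8 h. Clone 2 was at or below 1.91 CPM in all libraries, and in clone 4 the 8 h libraries were the highest. The difference was 2.42 ± 0.72 (SE, FDR = 0.0452), and it was not called when any of the 8 libraries was left out, with values from 1.89 to 2.80.

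Jade2, which encodes a PHD finger protein of histone acetyltransferase complexes (chromosome 11, 51813448 to 51859011), showed the next difference, 1.93 ± 0.38 (SE, FDR = 0.00197). WT Jade2 was at 10.1, 12.6, 9.74 and 10.9 CPM at 0 h, 7.02, 4.41, 5.82 and 5.31 at 2 h, 7.76, 8.09, 6.93 and 5.95 at 4 h and 10.1, 12.5, 11.6 and 11.8 at 8 h. Clone 2 Jade2 was at 4.15 and 4.402 CPM at 0 h, 4.42 and 3.05 at 2 h, 1.48 and 1.35 at 4 h and 3.34 and 2.93 at 8 h. Clone 4 Jade2 was at 4.52 CPM at 0 h, 2.42 and 3.41 at 2 h, 5.17 and 3.26 at 4 h and 8.100 and 10.9 at 8 h. Clone 2 was lowest at 4 h with 8 h and 2 h overlapping, and clone 4 at 8 h was above all its other libraries. The call held with each of the 8 libraries left out.

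Tmem200a, a transmembrane protein of unassigned role here, differed by 1.34 ± 0.32 (SE, FDR = 0.0102). WT Tmem200a was at 3.29, 3.47, 4.72 and 4.89 CPM at 0 h, 4.93, 5.26, 3.77 and 4.61 at 2 h, 11.1, 10.7, 13.1 and 14.3 at 4 h and 9.94, 10.4, 9.84 and 12.3 at 8 h. Clone 2 Tmem200a was at 2.53 and 2.97 CPM at 0 h, 4.18 and 2.798 at 2 h, 5.22 and 4.42 at 4 h and 4.23 and 3.31 at 8 h. Clone 4 Tmem200a was at 9.39 CPM at 0 h, 8.69 and 10.97 at 2 h, 28.5 and 25.5 at 4 h and 26.8 and 27.8 at 8 h. WT and clone 4 were higher at 4 h and 8 h than before, and in clone 2 the 8 h libraries overlapped those of 2 h. The call was lost without clone 2 replicate 1 at 2 h (1.01), clone 4 replicate 1 at 2 h (1.18) or clone 2 replicate 2 at 8 h (1.17). 4632404H12Rik differed by 1.51 ± 0.43 (SE, FDR = 0.0342), and lost the call with any of the 8 libraries left out (1.42 to 1.61).

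Features that the rule did not use also differed between the courses. Genomic span, from the first to the last base of the RefSeq gene, had a median of 88.1 kb in the 33 early risers, 15.8 kb in the 86 dippers with a span and 12.6 kb in the 28 others, beside 26.5 kb in the genes that passed the filters. The members were also low in abundance, with a median of 10.2 CPM at WT 0 h against 43.5 CPM in all genes that passed the filters. The rule favours this, since it ranks by a low WT level at 2 h. Among genes at 5 to 20 CPM at WT 0 h the median span was 21.2 kb, and 17.0 kb in the members. Spans at that level were not computed for each course. The median spans are descriptions with no test. The length column of the files exceeded the RefSeq span in 30 of 147 members and was not used, so levels are not compared between genes.

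**Figure D5:**
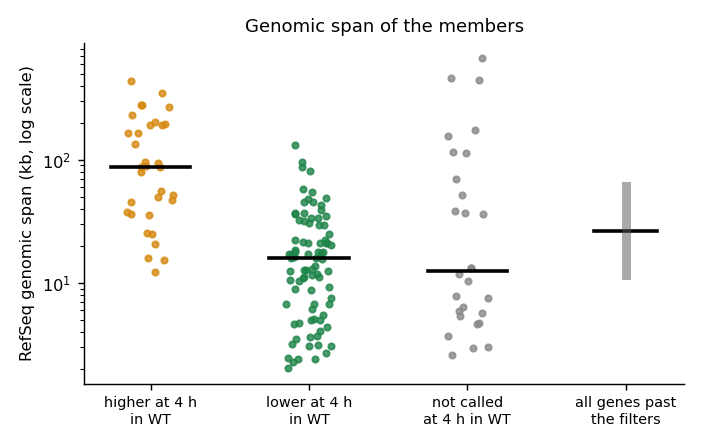
RefSeq genomic span in kb (vertical axis, log scale) of the members by their WT call at 4 h against 0 h, with 1 point per gene and a bar at the median; for all genes that passed the filters the grey bar spans the middle part of the values, from 11.5 to 61.6 kb. The medians are 88.1 kb, 15.8 kb and 12.6 kb for the members and 26.5 kb for all.

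The authors' lists of symbols from CAPRIN1 immunoprecipitation, which give no values, held few members. Of the 150, 9 (6%) were in the list named CNT vs RA and 10 (6.67%) in that named 2I vs RA, beside 18.9% and 20.6% of the genes that passed the filters. The members made 0.415% and 0.400% of those lists. Among genes at 5 to 20 CPM at WT 0 h, 5.87% were in the CNT list and 8.08% in the 2I list; of the 79 members at that level, 4 (5.06%) and 1 (1.27%) were. These shares carry no test.

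The pathway lists used here were chosen with earlier results of these data known. Their counts from 2 h to 8 h stand beside 12.6% of all genes higher and 13.2% lower in clone 2, and 9.1% and 11.3% in clone 4. Msmo1, a demethylase of cholesterol synthesis, is the single member of an 18-gene list of that pathway. From 2 h to 8 h, 15 of the 18 were higher and 0 lower in clone 2, and 3 higher and 1 lower in clone 4, with medians of 0.71 and 0.18; Msmo1 had 1.16 ± 0.15 in clone 2, called, and 0.22 ± 0.14 in clone 4. Of 22 RA response genes, none of which is a member, 0 were higher and 14 lower in clone 2, and 1 higher and 15 lower in clone 4. Of 28 immediate early genes, with 0 members among them, 1 was higher and 20 lower in clone 2, and 0 higher and 24 lower in clone 4. At 4 h against 0 h in WT, 21 of these 28 were higher and 2 lower, with a median log2 value of 0.73. Of all genes, 24.8% were higher and 27.4% lower there. The reason for that earlier rise was not tested. Of 20 neuroectoderm genes, which include Tubb3 and Pax3, 2 were higher and 1 lower in clone 2, and 2 higher and 2 lower in clone 4, which is near the shares of all genes.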

How the data were processed

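RNA-seq covered WT and 2 Caprin1 KO clones in 31 libraries of 12 groups. The authors deposited raw counts per gene, 1 table per time, from poly(A) libraries made with a stranded kit, per the labels' protocols. Cuffdiff, Cufflinks, DESeq2, TopHat, STAR 2.4.0.1 and FastQC 0.11.9 are named with GRCm38 and mm10, per the submitters' processing notes, without their roles; no source used here gives the counter or its strand setting, so overlapping genes and near-identical copies are uncertain. A deposited column of another kind holds gene length, and the deposited immunoprecipitation lists hold symbols only. Of 51520 lines, 110 repeats were dropped. The members, lists, courses and role groups were chosen with earlier results of these data known. Tests used edgeR 4.0.16 in R 4.3.3 (TMM, filterByExpr, robust quasi-likelihood fit of 12 groups, 19 residual degrees of freedom, Benjamini-Hochberg, FDR under 0.05), checked on simulated counts. The CPM values printed are shares of the library total, and log2 changes and their SE come from the TMM-scaled fit. Library totals of 3.46 to 31.6 M (mega-counts) set the precision. Alternatives were DESeq2 1.42.0, other scalings, filters, fits, left-out replicates and other rules. Genes named were drawn from the 20 highest by rank, those rising most in both clones, those called most strongly at 0 h, at 4 h or between clones, list members and those at the edge of the rule. Some genes that this choice names are not reported here. Positions and promoters are RefSeq's, GRCm38.p6, and 147 members matched a position. Role groups and the examples in them were picked after their values were seen.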

Additional observations from a re-analysis of the deposited data

Results flagged for a closer look

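Of 84 pairs of a gene and a WT group, 8 held a library far from the other 3; chance gives this in about 1 of 20 groups. Dnajc28 was lowest in WT replicate 4 at 8 h (5.45 CPM), and Tor4a in WT replicate 1 at 2 h (8.06 CPM). Ppp1r3b stood apart in WT replicate 2 both at 2 h (9.81 CPM, the highest) and at 4 h (4.62 CPM, the lowest). Ahnak2 was lowest in WT replicate 3 at 2 h (25.9 CPM) and highest in WT replicate 4 at 8 h (64.7 CPM). Dkk2 was highest in WT replicate 4 at 4 h (31.3 CPM) and in WT replicate 1 at 8 h (39.8 CPM).

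A test of the difference between the clones in the change from 2 h to 8 h called 14 members. The log2 difference, clone 4 minus clone 2, was above 0 in 7 of them, with 2.42 in Calcr, 1.93 in Jade2, 1.51 in 4632404H12Rik, 1.34 in Tmem200a, 1.17 in Pnma2, 0.79 in Tspan2 and 0.63 in Igsf11. It was below 0 in the other 7, with -1.33 in Aqp8, -1.03 in Snai1, -0.93 in Msmo1, -0.84 in Thbd, -0.83 in Tor4a, -0.74 in Slco3a1 and -0.57 in Stat2. Among the 4 largest, the call for Jade2 held with each of the 8 libraries left out, and those for Calcr, 4632404H12Rik and Tmem200a did not.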

How the results depend on the processing

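No result for a named gene reversed in 2350 recomputed values, and 180 lost the call. Of the counts of called members, 16 of 173 moved by over 1.5 times. Among the 100 highest by the rule, clone 2 counts were 60 from 2 h to 8 h, 42 at 8 h against 0 h, 55 at 4 h against 0 h and 62 from 4 h to 8 h, and the difference between clones counted 9; fewer genes enter. The fit of only the groups compared called 23 for clone 4 against WT at 0 h. With 1 replicate left out, the counts were 40 to 51 in clone 2 at 8 h against 0 h, 45 to 49 in clone 4 at 4 h against 0 h, and 6 to 10 for the difference between clones; an arm left with 1 library was taken to vary like the other groups. The list itself depends on the rule: 94 members were shared with 5 CPM added, 92 with a minimum of 1 CPM, 99 with a minimum of 10 CPM, and 132 to 140 with a WT replicate left out. Replicate numbers were not taken as pairs in the main fit. For WT at 0 h and 4 h, same-numbered libraries correlated at 0.11, 0.24, -0.15 and 0.49, and differently numbered ones at -0.59 to 0.53. Between times, same-numbered libraries correlated at 0.02 to 0.17 in clone 2 and at -0.06 to 0.04 in clone 4. These values do not settle whether the samples were paired. With a replicate block the counts were 97 and 107 in clones 2 and 4 from 2 h to 8 h, and 121 in WT at 4 h. Low counts at 2 h limit the precision of genes near 1 CPM.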
